A study of Mus musculus with 30 samples.

Results

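MBD2a was compared with its methyl-binding mutant MBD2aR181C in neuronal progenitor cells (NPCs) derived in culture from mouse embryonic stem cells (ESCs). The comparison takes in 6 samples, the 3 poly(A) RNA-seq libraries of each of these 2 lines, out of 24 RNA-seq libraries and 30 samples in all. They were chosen by the line that the columns and labels name, and all 25400 genes of the table entered the filter on low counts, which 16582 passed. Both lines carry the knockout of *Mbd3* (*Mbd3* KO, targeted at exons 2 and 3) and, at a recombination site, a biotin-tagged construct driven by the CAG promoter. In the MBD2a line the construct encodes the long isoform of MBD2, and in the MBD2aR181C line the same protein with a substitution in its methyl-CpG binding domain (MBD). The labels call the mutant R181C, the text of the study R191C and the columns of the table R64C, and a single MBD point mutant is among the lines. Each library of the pair came from a clone derived on its own, and the endogenous *Mbd2* gene was left in place. The other lines are wild type (WT), *Mbd3* KO without a construct and *Mbd3* KO with MBD3a, MBD3delMBD, MBD2adelGR or MBD2t, of which only WT and *Mbd3* KO are compared with the pair here. The ChIP-seq samples of the study were not analysed here.

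MBD2 and MBD3 are alternative subunits of NuRD, a repressive complex that joins a nucleosome remodeller of the CHD family with the histone deacetylases HDAC1 and HDAC2. The MBD of MBD2 binds methylated CpG dinucleotides, whereas that of mammalian MBD3 has largely lost this preference. ESCs without *Mbd3* keep pluripotency genes on and differentiate poorly, and such cells can turn on genes of the trophoblast. In a neural differentiation of ESCs with retinoic acid, pluripotency genes are shut off, Pax6-positive radial glia-like progenitors form and proneural factors then drive neuronal genes. The comparison asks what changes in this progression when MBD2a can or cannot bind methylated DNA.

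*Mbd2* itself, read from the endogenous gene and the construct together, was lower in the MBD2a line than in the mutant line. Levels in CPM, reads relative to library sizes scaled by the trimmed mean of M values, were 87.2, 86.3 and 67.0 in the MBD2a libraries s13, s14 and s15 and 253, 256 and 325 in the MBD2aR181C libraries s19, s20 and s21, the order used for every gene. The means were 80.2 ± 11.4 (SD, n = 3) and 278 ± 41.1 (SD, n = 3), a ratio of 3.47, and no library of the one line overlapped the other. The fit across all genes gave a log2 fold change -1.79 ± 0.22 (SE), adjusted p = 5.01e-06 (edgeR quasi-likelihood F test with Benjamini-Hochberg adjustment), and the two-sided exact permutation test gave p = 0.1, the smallest that 3 against 3 libraries allow. *Mbd2* lay at 64.2 to 70.9 CPM in *Mbd3* KO without a construct, so s15 lay within that range and s13 and s14 above it. It lay at 40.8 to 50.4 CPM in WT. The point mutation and the level of *Mbd2* transcripts therefore differ together between the lines and cannot be told apart here. For protein, the study reports equal levels of MBD2a and MBD2adelGR on a blot of ESCs, and no protein level in the NPCs was used here.

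Reads of *Mbd3*, the gene knocked out in both lines, were 71.0, 70.8 and 36.4 CPM in MBD2a and 76.9, 66.7 and 70.9 CPM in MBD2aR181C, against 155, 149 and 157 CPM in WT. *Mbd3* overlapped between the lines and was not called (log2 fold change -0.27 ± 0.27 (SE), adjusted p = 0.422). Library s15 held fewer *Mbd3* reads than the other MBD2a libraries, as did 1 library of *Mbd3* KO, s04, at 34.2 CPM. Since counts are summed over the whole gene, they do not show whether the targeted exons are absent.

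The 6 libraries held 31875299 to 49392806 counted reads, so that 3 counts equal 0.0607 to 0.0941 CPM before scaling, a floor that covers counting error only. Replicates were far from identical: between 7.64% and 16.2% of the tested genes differed more than 2-fold between libraries of the same line. Library s15 stood apart within MBD2a, with genes on chromosome 1 at a median of -0.42 log2 units relative to the mean of s13 and s14, a shift that s04 of *Mbd3* KO shared at -0.35. Library s20 stood apart within MBD2aR181C by higher pluripotency and germline genes, and s13 within MBD2a by low glycolytic genes. Chromosome Y genes gave 1.18 to 5.10 CPM in all in the 6 libraries and 34.8 to 51.7 CPM in WT, and of 4 genes tested there only *Uba1y* was called (log2 fold change 3.15), though not without s15 (log2 fold change 1.78, adjusted p = 0.176, edgeR). Results that rest on 1 library are given with and without it.

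Both lines are labelled as neural progenitors, and the defining markers were present in the mutant line and much lower in the MBD2a line. The 8 progenitor markers tested (*Pax6*, *Sox2*, *Nes*, *Fabp7*, *Slc1a3*, *Hes5*, *Cd24a* and *Ncam1*) summed to 379.8 to 577 CPM in MBD2a and 1262 to 1751 CPM in MBD2aR181C, and all 8 were called lower in MBD2a. Beside the counts of called markers given here, 12.2% of all tested genes were called lower and 15.1% higher. *Sox2* stood at 103, 196 and 122 CPM in MBD2a and 295, 264 and 300.1 CPM in MBD2aR181C (log2 fold change -1.03 ± 0.30 (SE), adjusted p = 0.00864). *Sox1* was not analysed here. The progenitor markers were unevenly low in MBD2a, where *Sox2* was above 100 CPM and *Fabp7* was under 1 CPM. The 5 neuron markers summed to 57.1 to 183 CPM in MBD2a and 1438 to 2978 CPM in MBD2aR181C. Summed markers of other cell types separated the lines for some types and overlapped for others. The 4 pluripotency markers summed to 213 to 394 CPM in MBD2a and 16.1 to 204 CPM in MBD2aR181C, with 1 called higher. The 8 endoderm markers summed to 73.9 to 431 CPM in MBD2a and 44.8 to 77.8 CPM in MBD2aR181C, with 6 called higher and the lines overlapping. The 5 trophoblast markers, all called higher, summed to 51.9 to 429.6 CPM in MBD2a and 11.2 to 23.9 CPM in MBD2aR181C, and s15 was the highest library for them. The 6 mesodermal markers summed to 88.0 to 103 CPM in MBD2a and 102 to 311 CPM in MBD2aR181C, with 3 called lower and 1 higher and the lines overlapping. Of the mutant libraries, s19 stood at 311 CPM and s20 and s21 at 105 and 102 CPM. The 4 markers of endothelium and blood tested summed to 15.5 to 23.8 CPM in MBD2a and 27.9 to 43.4 CPM in MBD2aR181C, with 2 called lower. *Ptprc* and *Hbb-bh1* of blood did not pass the filter. The part of these cell types in the gene results was not tested. In bulk RNA, fewer cells of a type and less RNA per cell cannot be told apart.

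**Figure D1:**
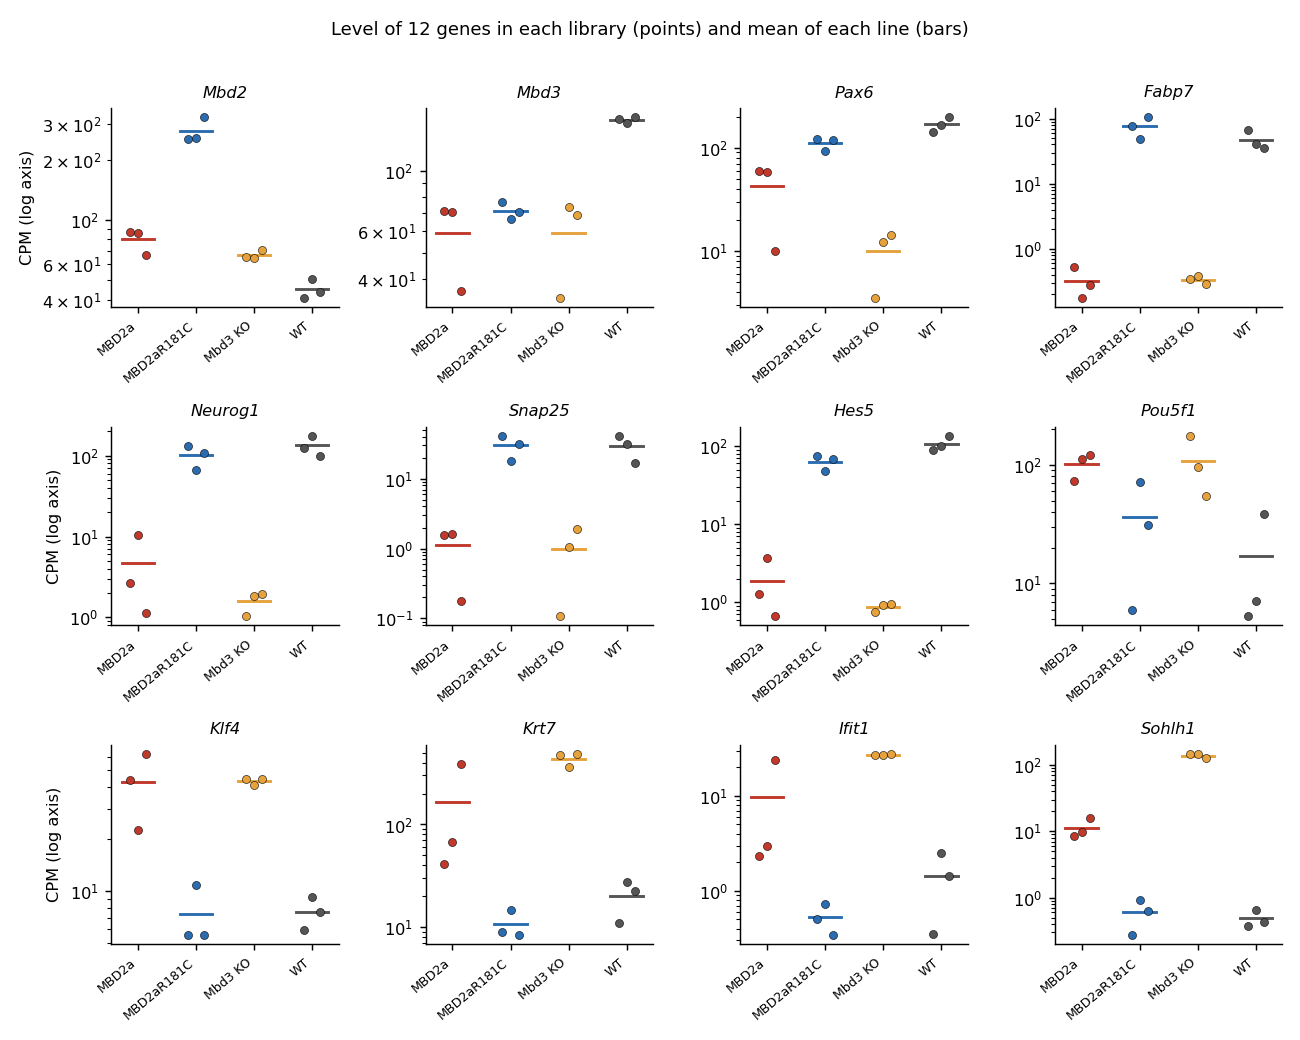
Level of 12 genes in CPM (log axis) in the 3 libraries of MBD2a, MBD2aR181C, Mbd3 KO and WT, with each point a library and each bar the mean of a line. Mbd2 is highest in MBD2aR181C, the neural genes Fabp7, Neurog1, Snap25 and Hes5 are low in MBD2a and Mbd3 KO, and Pou5f1 in s20 (71.1 CPM) lies just under the lowest MBD2a library (72.6 CPM).

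Across the genome, 4525 of 16582 tested genes (27.3%) were called changed, at an adjusted p under 0.05 and an absolute log2 fold change over 1. Of these, 2509 (15.1%) were higher and 2016 (12.2%) lower in MBD2a than in MBD2aR181C. The median called rise was 3.53-fold and the median called fall 3.86-fold. All 3 MBD2a libraries lay below all 3 mutant libraries in 98.3% of the lower calls, beside 31.1% of all tested genes. They lay above them in 85.3% of the higher calls, beside 25.6% of all tested genes. Calls and separation rest on the same values, so these shares are a description. Long intergenic noncoding RNAs were more often lower than higher, with 51 of 164 tested called lower (31.1%) and 18 higher (10.98%), whereas protein-coding genes had 1896 of 15617 called lower and 2440 higher. Leaving out s15 and s20 together, which was added after the data were seen, gave 2519 higher and 2051 lower genes, and 3908 of the 4525 calls remained.

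Leaving aside genes that averaged under 1 on the log2 CPM scale or overlapped between the lines, the largest falls were led by genes of the neural tube and its progenitors. *Fabp7*, the brain lipid-binding protein of radial glia, stood at 0.518, 0.177 and 0.280 CPM in MBD2a and 76.8, 49.3 and 104 CPM in MBD2aR181C (log2 fold change -7.87 ± 0.64 (SE), adjusted p = 3.85e-07). *Msx3*, a homeobox gene of the dorsal neural tube, stood at 2.36, 2.98 and 1.73 CPM in MBD2a and 289, 153 and 264 CPM in MBD2aR181C (log2 fold change -6.65 ± 0.55 (SE), adjusted p = 3.85e-07). *Pax3*, which marks the dorsal neural tube and neural crest, was at 2.42, 3.92 and 2.85 CPM in MBD2a and 239, 137 and 206 CPM in MBD2aR181C (log2 fold change -5.99 ± 0.53 (SE), adjusted p = 5.19e-07). For each of the 3 genes, every MBD2a library lay far below the lowest mutant library. *Sparcl1* (-6.45), *Akap6* (-6.35), *Lamp5* (-5.97), *Slc26a7* (-5.91), the zinc finger gene *Myt1* (-5.82), *Sox1ot* (-5.77) and the ephrin receptor gene *Epha3* (-5.75) complete the 10 largest of these log2 falls. *Sparcl1* overlaps a gene on the opposite strand, and since the strand setting of the counting is not given in the sources used here, its reads may be shared. The same holds for *Ncam1*, *Pax6*, *Hes5*, *Dll1*, *Dner*, *Tfap2a*, *Tagln*, *Nnat*, *Sall4*, *Chd5*, *Csf1r* and *Dnmt3l* below.

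By the same criteria, the largest rises came from several programmes. *Gpx2*, an epithelial glutathione peroxidase, stood at 10.6, 4.01 and 31.9 CPM in MBD2a and 0.467, 0.885 and 0.344 CPM in MBD2aR181C (log2 fold change 4.79 ± 0.97 (SE), adjusted p = 5.32e-04). *Sohlh1*, a germ cell transcription factor, stood at 8.40, 9.63 and 15.6 CPM in MBD2a and 0.276, 0.912 and 0.635 CPM in MBD2aR181C (log2 fold change 4.25 ± 0.39 (SE), adjusted p = 6.51e-07). *Krt7*, a keratin of simple epithelia and trophoblast, stood at 41.6, 67.2 and 385 CPM in MBD2a and 8.98, 14.7 and 8.44 CPM in MBD2aR181C (log2 fold change 3.95 ± 0.69 (SE), adjusted p = 1.43e-04). *Sohlh1* varied less than 2-fold among the MBD2a libraries, while *Gpx2* and *Krt7* were several times higher in s15 than in the lowest of the others. The rest of the 10 largest of these log2 rises were *Slc13a4* (4.10), the fibrinogen chains *Fga* (4.07) and *Fgb* (3.68), the antiviral genes *Rsad2* (3.92) and *Oas1a* (3.83), the endocytic adaptor *Epn3* (3.86) and the small heat shock protein *Cryab* (3.62). *Fgb* was not called without s13 or s19 (log2 fold changes of 2.52 to 3.51, adjusted p = 0.0507 to 0.0864, edgeR).

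**Figure D2:**
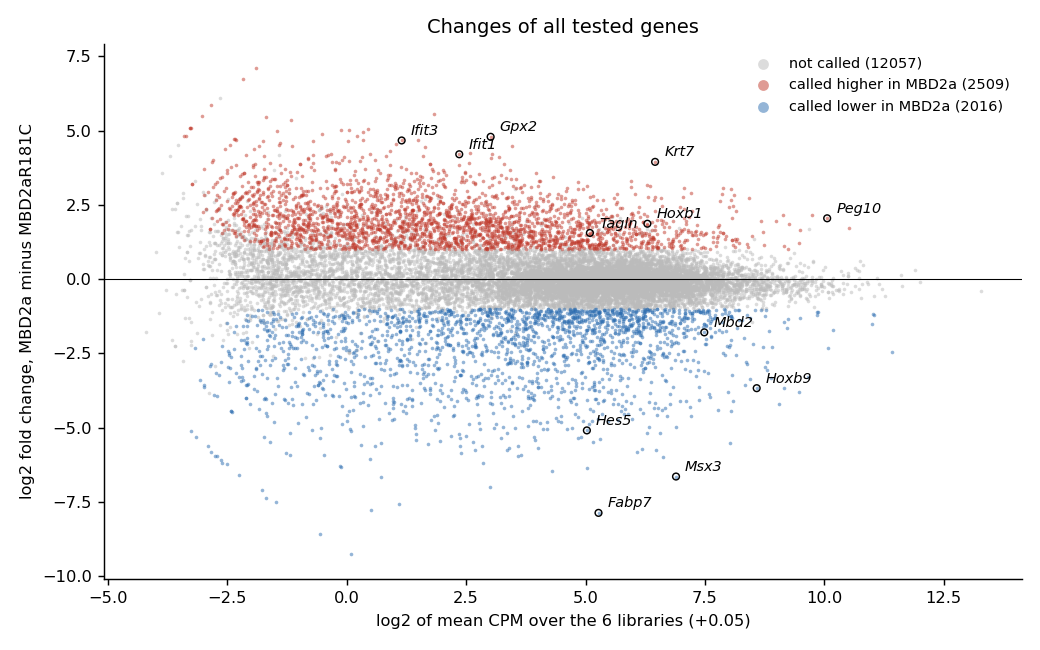
Log2 fold change of MBD2a minus MBD2aR181C against the log2 mean CPM of the 6 libraries for all 16582 tested genes, coloured by call (2509 higher in red, 2016 lower in blue). The falls reach further than the rises, with Fabp7 at -7.87 and Gpx2 at 4.79 on the log2 scale.

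Since the mutation lies in the domain that reads methylated CpG, the promoters of genes that led the rises and falls are shown with each CpG in capitals. Each run is the 250 bases before the gene start in NCBIM37, 5′ to 3′ on the strand of the gene. Among the genes with higher levels in MBD2a, the window of *Sohlh1* lies at chr2:25702769-25703018 (minus strand) and that of *Krt7* at chr15:101241224-101241473 (plus strand).
Sohlh1: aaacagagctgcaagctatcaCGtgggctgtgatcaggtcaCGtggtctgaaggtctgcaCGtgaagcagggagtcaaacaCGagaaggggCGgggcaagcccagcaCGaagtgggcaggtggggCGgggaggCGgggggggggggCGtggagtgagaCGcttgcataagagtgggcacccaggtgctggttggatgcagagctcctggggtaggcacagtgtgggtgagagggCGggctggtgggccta
Krt7: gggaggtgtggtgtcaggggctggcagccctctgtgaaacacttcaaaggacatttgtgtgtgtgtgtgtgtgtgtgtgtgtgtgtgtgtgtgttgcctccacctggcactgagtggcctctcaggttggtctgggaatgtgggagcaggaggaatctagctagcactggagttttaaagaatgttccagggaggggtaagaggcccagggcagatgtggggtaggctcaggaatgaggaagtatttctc

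The runs hold 11 CpGs for *Sohlh1* and 0 for *Krt7*. Among the genes with lower levels in MBD2a, *Msx3* at chr7:147235040-147235289 (minus strand) and *Fabp7* at chr10:57504437-57504686 (plus strand) hold 14 and 3.
Msx3: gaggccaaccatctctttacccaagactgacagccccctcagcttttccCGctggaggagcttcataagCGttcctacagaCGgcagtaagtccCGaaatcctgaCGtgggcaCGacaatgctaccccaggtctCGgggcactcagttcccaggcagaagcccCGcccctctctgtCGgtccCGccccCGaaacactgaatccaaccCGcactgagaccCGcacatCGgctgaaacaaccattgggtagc
Fabp7: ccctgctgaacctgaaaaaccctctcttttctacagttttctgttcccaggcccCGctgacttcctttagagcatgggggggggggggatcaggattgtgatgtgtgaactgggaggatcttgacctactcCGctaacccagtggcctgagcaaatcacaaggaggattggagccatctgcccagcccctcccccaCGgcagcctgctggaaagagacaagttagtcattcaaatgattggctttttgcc

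Over all genes, promoters of the genes called higher in MBD2a held fewer CpGs. In the 300 bases from 250 before to 50 after the gene start, the median was 10.0 CpGs for genes called higher, 16 for genes called lower and 17 for all tested genes. Of 1074 genes with 0 to 2 CpGs, 27.1% were called higher and 10.6% lower. Of 4837 genes with 25 or more, 8.91% were called higher and 12.5% lower. The share called higher thus fell with CpG content, while the share called lower stayed between 10.3% and 13.7%. Genes with few CpGs were also expressed at a lower level, with median log2 CPM of 0.27 against 5.34. The share called higher differed more between levels than between CpG classes within a level. Within genes of a mean log2 CPM under 2, 31.9% of those with under 15 CpGs and 25.7% of those with 15 or more were called higher. The shares were 19.14% and 11.7% at 2 to 5, and 6.33% and 4.08% at 5 or more. In *Mbd3* KO minus WT, which uses other libraries, the shares called higher were 34.5% and 11.99% in the lowest and highest class. Methylation of these promoters was not measured here, and the values are a description with no test.

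**Figure D3:**
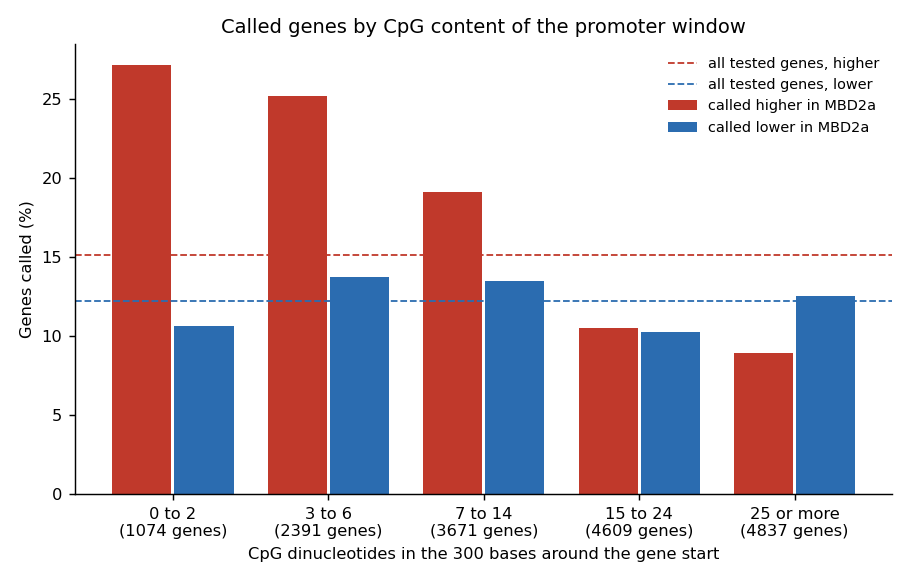
Percent of genes called higher (red) or lower (blue) in MBD2a than in MBD2aR181C, by the number of CpG dinucleotides in the 300 bases around the gene start, with dashed lines at 15.1% and 12.2% for all tested genes. The red bars fall from 27.1% to 8.91% across the classes, and the blue bars stay near their line.

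The neural programme was lower in MBD2a almost throughout. Of 30 tested genes of neural progenitors and radial glia, 28 were called lower and none higher, with a median log2 fold change of -2.74 beside -0.03 for all tested genes. *Hes1*, a repressor of proneural genes, was not called (-0.41). Of 30 proneural and neuronal transcription factors, 26 were called lower and none higher, with a median of -4.03. Of 36 genes of postmitotic neurons, 35 were called lower and none higher, with a median of -3.87. These shares, 93.3%, 86.7% and 97.2%, stand beside 12.2% of all tested genes called lower.

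*Neurog1*, a proneural factor that commits progenitors to neurons, stood at 2.65, 10.3 and 1.15 CPM in MBD2a and 130.4, 66.3 and 108 CPM in MBD2aR181C (log2 fold change -4.45 ± 0.52 (SE), adjusted p = 3.88e-06). *Neurod4*, which acts after it, stood at 1.15, 3.62 and 0.204 CPM in MBD2a and 34.6, 15.8 and 27.2 CPM in MBD2aR181C (log2 fold change -4.00 ± 0.50 (SE), adjusted p = 6.88e-06). In both genes s14 was the highest MBD2a library and s20 the lowest mutant library, and the lines did not overlap. *Myt1l*, a repressor of non-neuronal genes, was at 0.288, 0 and 0.280 CPM in MBD2a and 24.2, 9.34 and 9.13 CPM in MBD2aR181C (log2 fold change -6.18 ± 1.00 (SE), adjusted p = 7.53e-05). *Lhx5*, a LIM homeobox gene of interneuron precursors, was at 3.86, 6.92 and 1.89 CPM in MBD2a and 228, 93.2 and 133 CPM in MBD2aR181C (log2 fold change -5.18, adjusted p = 1.45e-05). *Nhlh1*, a basic helix-loop-helix factor of newborn neurons, was at 4.29, 8.69 and 0.943 CPM in MBD2a and 149, 73.3 and 100.4 CPM in MBD2aR181C (log2 fold change -4.55, adjusted p = 1.33e-05). The mutant libraries lay far above the highest MBD2a library for these 3 genes. The members not called were *Neurog3* (0.96), *Isl1* (0.58), *Pou4f1* (-0.77) and *Onecut2* (-1.01).

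*Pax6*, the progenitor factor, changed less than most of its group, at 58.9, 58.7 and 9.99 CPM in MBD2a and 121, 92.4 and 120.3 CPM in MBD2aR181C (log2 fold change -1.39 ± 0.43 (SE), adjusted p = 0.0125). Libraries s13 and s14 were alike and s15 was several times lower. Without s15 the log2 fold change was -0.91, adjusted p = 0.0273 (edgeR), under the fold threshold, and the fit of only the 2 lines did not call it (-1.36, adjusted p = 0.095). *Pax6* overlaps *Elp4* on the opposite strand. The surface markers used to sort neural cells followed the group, with *Cd24a* at 219.7, 209 and 170.5 CPM in MBD2a and 575, 387 and 524 CPM in MBD2aR181C (log2 fold change -1.31 ± 0.18 (SE), adjusted p = 1.53e-05). *Ncam1*, which encodes CD56 and overlaps *Gm11149* on the opposite strand, was at 24.5, 17.8 and 10.6 CPM in MBD2a and 263, 131 and 161 CPM in MBD2aR181C (log2 fold change -3.39 ± 0.46 (SE), adjusted p = 1.60e-05).

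Among neuronal genes, the synaptic gene *Snap25* stood at 1.58, 1.59 and 0.178 CPM in MBD2a and 40.7, 18.1 and 31.1 CPM in MBD2aR181C (log2 fold change -4.78 ± 0.63 (SE), adjusted p = 1.10e-05). *Stmn3*, a regulator of microtubules, was at 3.31, 4.83 and 1.33 CPM in MBD2a and 105, 46.7 and 105 CPM in MBD2aR181C (log2 fold change -4.78, adjusted p = 1.28e-06). *Scg3*, a gene of secretory granules, was at 1.70, 2.59 and 0.331 CPM in MBD2a and 56.8, 26.8 and 40.5 CPM in MBD2aR181C (log2 fold change -4.78, adjusted p = 3.40e-06). In each of these genes s15 was the lowest library and no MBD2a library reached a mutant library. *Elavl4*, an RNA-binding protein of neurons, was at 3.94, 6.27 and 0.815 CPM in MBD2a and 139, 63.6 and 92.4 CPM in MBD2aR181C (log2 fold change -4.76, adjusted p = 7.72e-06). The summed level of the 36 genes was 524, 725 and 278 CPM in MBD2a and 8875, 4429 and 6281 CPM in MBD2aR181C, so the lowest mutant library, s20, still held several times the level of the highest MBD2a library.

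The Notch pathway, by which neighbouring progenitors hold each other back from differentiation, fell in ligands, targets and modulators. Of 29 tested members, 16 were called lower (55.2%, beside 12.2% of all genes) and none higher, with a median log2 fold change of -1.60. The ligand *Dll1* stood at 4.84, 10.0 and 4.51 CPM in MBD2a and 143, 83.4 and 124 CPM in MBD2aR181C (log2 fold change -4.18 ± 0.35 (SE), adjusted p = 3.85e-07). *Dll3*, a divergent ligand, was at 1.81, 4.74 and 2.01 CPM in MBD2a and 63.7, 32.4 and 47.7 CPM in MBD2aR181C (log2 fold change -4.08, adjusted p = 3.85e-07). The ligand-like *Dner* was at 5.41, 7.69 and 1.71 CPM in MBD2a and 232, 92.3 and 142 CPM in MBD2aR181C (log2 fold change -4.99 ± 0.72 (SE), adjusted p = 2.65e-05), and overlaps a gene on the opposite strand, as do *Dll1* and *Hes5*. *Hes5*, a direct target of the pathway that keeps progenitors undifferentiated, was at 1.30, 3.68 and 0.663 CPM in MBD2a and 74.3, 48.0 and 67.5 CPM in MBD2aR181C (log2 fold change -5.10 ± 0.43 (SE), adjusted p = 3.85e-07). None of the 4 genes overlapped between the lines. *Numb* (0.35), an inhibitor of the receptor, *Notch2* (0.24) and *Jag2* (0.19) had log2 fold changes above 0 without a call, and the DNA-binding partner *Rbpj* was at -0.06, also without a call. Receptor *Notch1* (-1.70) and the fringe genes *Lfng* (-3.13) and *Mfng* (-3.05) were called lower.

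Hox genes, which retinoic acid turns on along the clusters, split by gene. Of 32 tested, 19 were called lower (59.4%) and 6 higher (18.8%, near the 15.1% of all genes), with a median log2 fold change of -1.52. *Hoxb9* stood at 75.6, 73.4 and 18.2 CPM in MBD2a and 1144, 439 and 549.8 CPM in MBD2aR181C (log2 fold change -3.67 ± 0.74 (SE), adjusted p = 5.22e-04). *Hoxa6* was at 4.69, 4.65 and 0.866 CPM in MBD2a and 111, 51.9 and 70.5 CPM in MBD2aR181C (log2 fold change -4.53, adjusted p = 2.19e-05), and *Hoxc6*, its counterpart in another cluster, at 6.19, 5.66 and 1.83 CPM in MBD2a and 108, 50.0 and 75.5 CPM in MBD2aR181C (log2 fold change -4.10, adjusted p = 3.73e-05). Every MBD2a library lay below every mutant library for the 3 genes, and s15 was the lowest. *Hoxd3* was at 25.4, 39.9 and 5.63 CPM in MBD2a and 427, 278 and 397 CPM in MBD2aR181C (log2 fold change -3.96 ± 0.57 (SE), adjusted p = 2.57e-05) and overlaps *Hoxd4* on its own strand and *1700109F18Rik* on the other, so its reads may be shared. *Hoxb1*, at the early 3' end of its cluster, went the other way at 179.8, 138 and 51.0 CPM in MBD2a and 21.5, 50.3 and 29.7 CPM in MBD2aR181C (log2 fold change 1.86 ± 0.36 (SE), adjusted p = 3.47e-04), with s15 barely above the highest mutant library. *Hoxd13* (1.89), *Hoxc13* (1.86) and *Hoxc10* (1.72) of the late ends were also called higher, all at levels of at most 5.22 CPM. *Hoxc10* was not called without s13 (log2 fold change 1.22, adjusted p = 0.0595, edgeR), and without s13 the genes called higher were 3.

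In the retinoic acid pathway, 9 of 23 tested genes were called lower (39.1%, beside 12.2% of all genes) and 5 higher (21.7%, beside 15.1%). *Aldh1a1*, which makes retinoic acid, stood at 6.30, 2.03 and 10.1 CPM in MBD2a and 0.297, 0.537 and 0.450 CPM in MBD2aR181C (log2 fold change 3.88 ± 0.77 (SE), adjusted p = 4.64e-04). *Rbp4*, the carrier of retinol and also a gene of visceral endoderm, was at 29.5, 11.05 and 114 CPM in MBD2a and 3.14, 8.80 and 4.37 CPM in MBD2aR181C (log2 fold change 3.26 ± 1.12 (SE), adjusted p = 0.0209), and it was not called without s15, s19 or s21 (log2 fold changes of 1.92 to 3.13, adjusted p = 0.0711 to 0.172, edgeR). The synthesis gene *Aldh1a2* had a log2 fold change of 1.94 without a call. It was called without s14, s15 or s19 (log2 fold changes of 2.33 to 2.86, adjusted p = 0.0325 to 0.0356, edgeR) and by DESeq2, and without s13 its log2 fold change was 0.44. The oxidising *Rdh10* had one of 1.74, called, but not without s15 or s21 (log2 fold changes of 1.21 to 1.63, adjusted p = 0.0719 to 0.128, edgeR). The receptors split, with *Rarg* (1.35) called higher and *Rara* (-1.15), *Rarb* (-1.52) and *Rxrg* (-1.40) lower. *Cyp26a1*, which degrades retinoic acid, was not called (0.88). *Pbx3*, a homeodomain partner of Hox proteins, was at 28.7, 29.2 and 12.2 CPM in MBD2a and 186, 105 and 134 CPM in MBD2aR181C (log2 fold change -2.61 ± 0.40 (SE), adjusted p = 5.03e-05). Without s14 the genes called lower were 5, without s19 4, and without s21 the genes called higher were 3.

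Pluripotency genes were either higher in MBD2a or not called, and the number called depended on the mutant library s20. Of 28 tested, 14 were called higher (50%, beside 15.1% of all genes) and none lower, with a median log2 fold change of 1.66. *Klf4* stood at 43.7, 22.5 and 61.8 CPM in MBD2a and 5.59, 10.9 and 5.58 CPM in MBD2aR181C (log2 fold change 2.55 ± 0.66 (SE), adjusted p = 0.00383). *Tfcp2l1*, like *Klf4* a factor of the naive state, was at 84.3, 99.5 and 89.0 CPM in MBD2a and 5.01, 35.5 and 11.1 CPM in MBD2aR181C (log2 fold change 2.41 ± 0.54 (SE), adjusted p = 0.00132). *Fgf4*, a target of Oct4 and Sox2, was at 4.60, 6.04 and 8.87 CPM in MBD2a and 0.170, 2.52 and 0.582 CPM in MBD2aR181C (log2 fold change 2.64, adjusted p = 0.00234). Library s20 was the highest mutant library in each, and no mutant library reached an MBD2a library. *Nr0b1* was at 10.3, 7.95 and 8.13 CPM in MBD2a and 1.25, 3.25 and 1.56 CPM in MBD2aR181C (log2 fold change 2.14, adjusted p = 1.29e-04). *Pou5f1*, which encodes Oct4, was at 72.6, 112 and 121 CPM in MBD2a and 5.97, 71.1 and 30.9 CPM in MBD2aR181C. The lines did not overlap, s20 lay just under s13, and the gene was not called (log2 fold change 1.505 ± 0.75 (SE), adjusted p = 0.0993). *Nanog* was at 46.1, 94.7 and 91.6 CPM in MBD2a and 1.42, 58.7 and 20.5 CPM in MBD2aR181C (log2 fold change 1.53 ± 1.08 (SE), adjusted p = 0.246), and s20 lay above s13. Without s20, 23 of the 28 genes were called higher with a median of 2.68, *Pou5f1* among them (2.50, adjusted p = 0.0183, edgeR). *Dppa3* was the only member with a log2 fold change below 0 (-0.47, not called).

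Genes of extraembryonic lineages were also among those called higher in MBD2a. In primitive and visceral endoderm, the yolk sac lineage that makes plasma proteins, 19 of 31 tested genes were called higher and none lower. The share called higher was 61.3%, beside 15.1% of all genes, and the median log2 fold change of the list was 2.28. *Fga* stood at 20.7, 19.9 and 4.97 CPM in MBD2a and 0.234, 1.64 and 0.926 CPM in MBD2aR181C (log2 fold change 4.07 ± 0.86 (SE), adjusted p = 8.19e-04), with all MBD2a libraries above the mutant ones. *Apob*, the main protein of lipoproteins, was at 5.15, 1.502 and 56.1 CPM in MBD2a and 0.467, 2.17 and 0.238 CPM in MBD2aR181C (log2 fold change 4.49 ± 1.48 (SE), adjusted p = 0.0166). It overlapped between the lines and was not called without s15, s19 or s21 (log2 fold changes of 1.84 to 4.16, adjusted p = 0.0653 to 0.334, edgeR). *Apoa1* (3.56) also overlapped and was not called without s15, s19, s20 or s21 (log2 fold changes of 1.501 to 4.41, adjusted p = 0.0543 to 0.438, edgeR). The summed level of the 31 genes was 943, 676 and 1423 CPM in MBD2a and 191.5, 363 and 205 CPM in MBD2aR181C. *Sox7* stayed at a log2 fold change of -0.11 without a call. Without s15 the genes called higher were 12, without s19 8 and without s21 9.

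In parietal endoderm, 6 of 15 tested genes were called higher (40%, beside 15.1% of all genes) and none lower. The list had a median log2 fold change of 1.54. The basement membrane genes *Col4a1* and *Col4a2*, which overlap each other at their starts on opposite strands, were both called higher. *Col4a1* stood at 1614, 286 and 2266 CPM in MBD2a and 295, 414 and 228 CPM in MBD2aR181C (log2 fold change 2.15, adjusted p = 0.0283) and *Col4a2* at 1028, 214 and 1513 CPM in MBD2a and 207, 260.3 and 156 CPM in MBD2aR181C (log2 fold change 2.14, adjusted p = 0.027). Library s14 lay within the range of the mutant line for both, and neither was called without s13, s15, s19 or s21 (log2 fold changes of 1.62 to 2.15 for *Col4a1*, edgeR). *Lamb1*, a laminin chain, was at 557, 263 and 484 CPM in MBD2a and 73.9, 168 and 72.4 CPM in MBD2aR181C (log2 fold change 2.05 ± 0.68 (SE), adjusted p = 0.017), did not overlap between the lines and was not called without s19 or s21 (log2 fold changes of 1.85 to 1.89, adjusted p = 0.0653 to 0.0715, edgeR). *Srgn* had the largest log2 fold change, 2.47, and was not called, while *Pth1r* (-0.35) and *Plat* (-0.24) lay below 0 without a call. Without s13, without s19 or without s21, 2 genes of the list were called higher.

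Of 30 tested trophoblast genes, 17 were called higher (56.7%, beside 15.1% of all genes) and 2 lower (6.67%, beside 12.2%). The list had a median log2 fold change of 1.94. Keratins led the list, with *Krt18* at 236, 205 and 963 CPM in MBD2a and 49.8, 69.3 and 51.1 CPM in MBD2aR181C (log2 fold change 3.04 ± 0.59 (SE), adjusted p = 4.04e-04) beside *Krt7*. The placental homeobox gene *Esx1* stood at 34.0, 49.3 and 81.6 CPM in MBD2a and 2.78, 12.1 and 5.37 CPM in MBD2aR181C (log2 fold change 3.04 ± 0.50 (SE), adjusted p = 9.10e-05). The summed level was 1964, 1747 and 6575 CPM in MBD2a and 664, 995 and 622 CPM in MBD2aR181C, so s15 held more than 3 times the level of s13 or s14. Without s15 the genes called higher were 10, and the median was 0.91. *Tfap2a*, which also marks neural crest and surface ectoderm, was lower at 3.83, 2.68 and 4.00 CPM in MBD2a and 74.1, 29.9 and 41.5 CPM in MBD2aR181C (log2 fold change -3.79 ± 0.61 (SE), adjusted p = 6.85e-05). The placental prolactin *Prl4a1* was called lower on 9 reads in MBD2a and 75 in MBD2aR181C, and lost that call under most alternatives, among them each fit without s13, s14, s15, s20 or s21 (log2 fold changes of -3.44 to -2.30, adjusted p = 0.0692 to 0.174, edgeR). *Tpbpa* (-1.28) and *Wnt7b* (-0.16) were below 0 without a call.

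Of 32 tested mesodermal and mesenchymal genes, 12 were called lower (37.5%, beside 12.2% of all genes) and 6 higher (18.8%, near the 15.1% of all genes), with a median log2 fold change of -0.30. *Lum*, a proteoglycan of connective tissue, had no read in the 3 MBD2a libraries and 262 reads in the 3 mutant libraries together, at least 77.2-fold lower when the MBD2a line is set to 3 counts over the group. *Mfap2* stood at 0.806, 0.943 and 1.02 CPM in MBD2a and 24.5, 15.7 and 15.7 CPM in MBD2aR181C (log2 fold change -4.33 ± 0.33 (SE), adjusted p = 3.85e-07). *Mfap2* is a gene of elastic microfibrils. The mesenchymal homeobox gene *Prrx1* stood at 0.921, 0.854 and 0.535 CPM in MBD2a and 18.4, 7.003 and 11.2 CPM in MBD2aR181C (log2 fold change -4.00, adjusted p = 7.10e-05). The collagen *Col3a1* was at 23.3, 3.33 and 3.01 CPM in MBD2a and 189, 41.1 and 55.4 CPM in MBD2aR181C (log2 fold change -3.28, adjusted p = 0.0056). The lines did not overlap for these 3 genes. *Tagln*, a smooth muscle gene, was higher at 59.4, 51.3 and 41.6 CPM in MBD2a and 14.4, 23.02 and 14.4 CPM in MBD2aR181C (log2 fold change 1.55 ± 0.34 (SE), adjusted p = 0.00113), as were *Acta1* (1.77) and the lowly expressed *Mfap5* (1.99), while *Pdgfra* (1.92) was not called. Without s19, 6 genes were called lower, and *Col3a1* was not called without s19 (log2 fold change -2.26, adjusted p = 0.0525, edgeR).

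Of 20 tested genes of endothelium and blood, 7 were called lower (35.0%) and 2 higher (10.0%), beside 12.2% and 15.1% of all genes. *Emcn*, an endothelial sialomucin, stood at 0.0863, 0.118 and 0.178 CPM in MBD2a and 2.04, 2.66 and 2.80 CPM in MBD2aR181C (log2 fold change -4.23 ± 0.67 (SE), adjusted p = 5.64e-05). The receptor gene *Tie1* was at 0.892, 0.943 and 1.22 CPM in MBD2a and 7.03, 6.44 and 5.58 CPM in MBD2aR181C (log2 fold change -2.63, adjusted p = 0.00325). *Kdr*, the main receptor for VEGF, was at 4.49, 1.41 and 1.73 CPM in MBD2a and 12.6, 14.5 and 10.3 CPM in MBD2aR181C (log2 fold change -2.29, adjusted p = 0.00199). Every MBD2a library lay below every mutant library for these 3 genes. *Tek*, the angiopoietin receptor, was higher at 4.60, 4.42 and 6.78 CPM in MBD2a and 0.701, 2.55 and 1.08 CPM in MBD2aR181C (log2 fold change 1.90 ± 0.54 (SE), adjusted p = 0.00706), as was the macrophage receptor *Csf1r* (2.42), which was not called without s15 or s19 (log2 fold changes of 1.44 to 2.27, adjusted p = 0.0741 to 0.223, edgeR) and overlaps *Hmgxb3* on the opposite strand. *Gata1* (1.39) and *Flt1* (1.34) were not called. *Gata1* was called without s13 (log2 fold change 1.71, adjusted p = 0.0498, edgeR) and *Flt1* without s14 (log2 fold change 1.82, adjusted p = 0.0392, edgeR), whereas without s15 *Flt1* was at 0.27. The genes called higher were 4 without s14 and 1 without s15 or without s19.

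**Figure D4:**
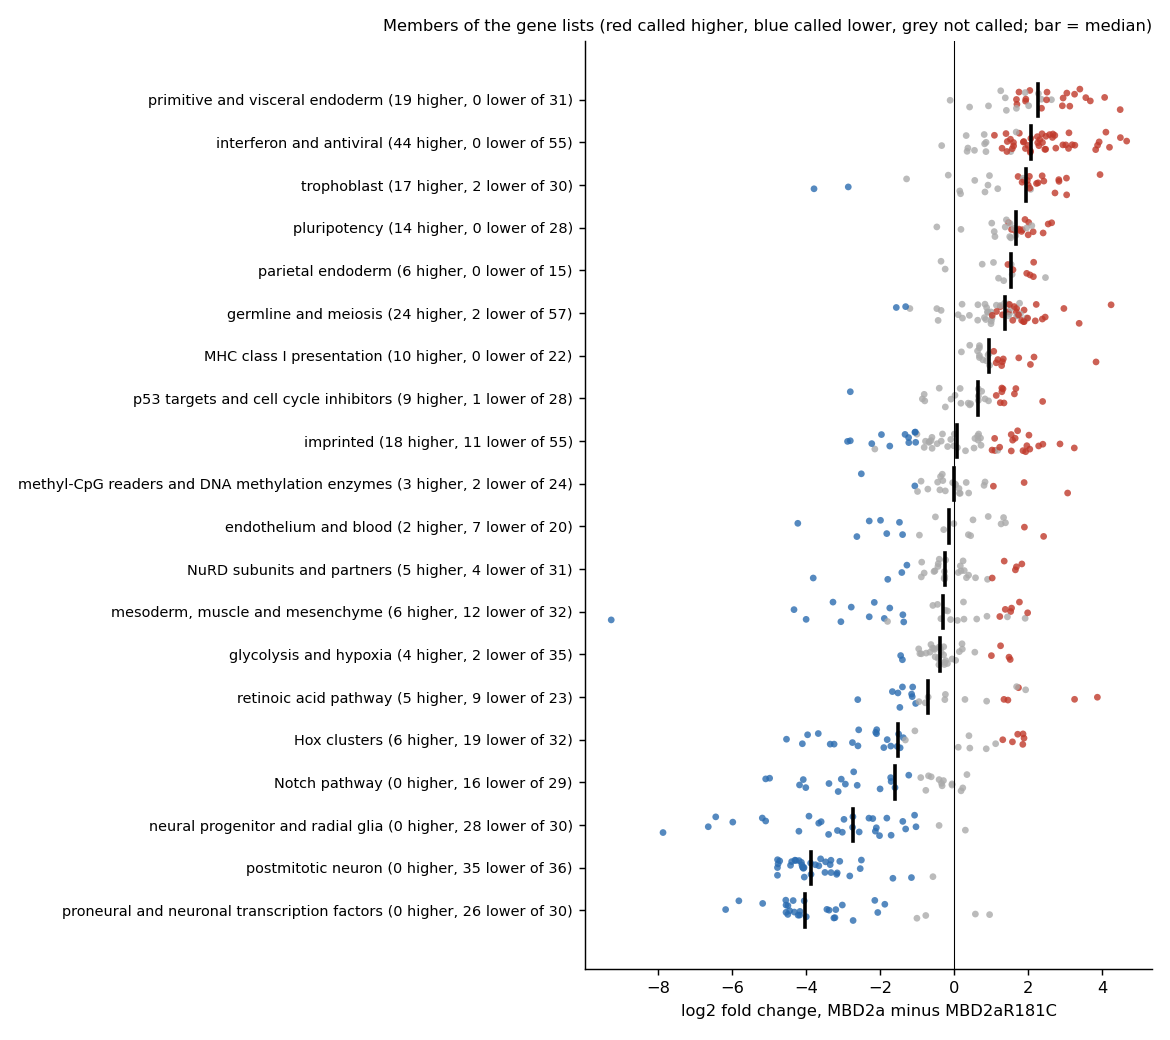
Log2 fold change of MBD2a minus MBD2aR181C for each tested member of 20 gene lists, with called genes in red (higher) or blue (lower), other genes in grey and the median as a bar. Neural lists lie at medians of -2.74 to -4.03, and the endoderm, interferon, trophoblast and pluripotency lists at 1.66 to 2.28 for the 4 uppermost.

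Interferon-stimulated genes, the antiviral programme that type I interferon or sensed nucleic acids turn on, were higher in MBD2a. Of 55 tested, 44 were called higher (80%, beside 15.1% of all genes) and none lower, with a median log2 fold change of 2.08. *Ifit1*, which binds viral RNA, stood at 2.33, 2.95 and 23.6 CPM in MBD2a and 0.510, 0.724 and 0.344 CPM in MBD2aR181C (log2 fold change 4.20 ± 0.82 (SE), adjusted p = 3.85e-04). *Ifit3*, its partner, was at 0.777, 1.03 and 10.7 CPM in MBD2a and 0.0849, 0.241 and 0.185 CPM in MBD2aR181C (log2 fold change 4.67 ± 0.94 (SE), adjusted p = 5.32e-04). *Oas1a*, which senses double-stranded RNA, was at 3.57, 5.24 and 19.4 CPM in MBD2a and 0.297, 1.05 and 0.714 CPM in MBD2aR181C (log2 fold change 3.83 ± 0.62 (SE), adjusted p = 7.88e-05). In all 3 genes the MBD2a libraries lay above every mutant library, and s15 was the highest by several-fold. The summed level of the list was 882, 1005 and 1775 CPM in MBD2a and 307, 589 and 387 CPM in MBD2aR181C. Without s15, 28 genes were called higher and the median was 1.33. *Oas2* (4.11) was not called without s15 (log2 fold change 1.33, adjusted p = 0.141, edgeR), and *Ifi44* (4.498) was not called without s15 (log2 fold change 0.38, adjusted p = 0.861, edgeR). *Irf8* was the only member below 0 (-0.34, not called).

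The promoters of 3 of these genes are shown for a sequence they share, the core of the interferon-stimulated response element, written GAAANNGAAA on one strand and TTTCNNTTTC on the other. Each run holds the 250 bases before the gene start of the annotation in NCBIM37, with matches in capitals. They lie at chr19:34715111-34715360 (plus strand), chr19:34657771-34658020 (plus strand) and chr5:121357537-121357786 (minus strand).
Ifit1: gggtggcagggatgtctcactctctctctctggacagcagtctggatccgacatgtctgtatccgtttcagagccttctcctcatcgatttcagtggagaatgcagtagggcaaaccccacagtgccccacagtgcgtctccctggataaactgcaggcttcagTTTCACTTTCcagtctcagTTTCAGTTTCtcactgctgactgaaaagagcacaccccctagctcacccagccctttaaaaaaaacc
Ifit3: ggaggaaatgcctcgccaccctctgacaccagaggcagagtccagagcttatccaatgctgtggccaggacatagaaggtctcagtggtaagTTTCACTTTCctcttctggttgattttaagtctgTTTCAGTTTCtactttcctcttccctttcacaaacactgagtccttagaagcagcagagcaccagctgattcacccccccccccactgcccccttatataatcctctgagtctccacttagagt
Oas1a: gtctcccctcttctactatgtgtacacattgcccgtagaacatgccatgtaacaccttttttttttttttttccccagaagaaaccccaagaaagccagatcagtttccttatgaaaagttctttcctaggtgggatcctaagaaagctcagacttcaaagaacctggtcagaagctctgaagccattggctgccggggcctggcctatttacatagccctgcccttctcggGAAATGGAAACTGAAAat

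*Ifit1* and *Ifit3* each hold 2 separate matches, and the 2 matches of *Oas1a* overlap by 4 bases just before the start. Among windows from 250 bases before to 50 after the gene start, 29 of the 55 interferon genes (52.7%) held a match on either strand, beside 3.24% of all 16582 tested genes. The match was present in 25 of the 44 called members and 4 of the 11 others. Of the 537 tested genes with a match, 124 (23.1%) were called higher in MBD2a and 54 lower, beside 15.1% and 12.2% of all tested genes. The 537 genes include the 29 interferon genes with a match, of which 25 were called higher. A match describes the sequence and not a bound site.

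Antigen presentation by MHC class I, which interferon also raises, moved the same way at smaller size. Of 22 tested genes, 10 were called higher (45.5%, beside 15.1% of all genes) and none lower. All 22 had a log2 fold change above 0, with a median of 0.96. *Tapbp*, which loads peptides, stood at 156, 158 and 185 CPM in MBD2a and 34.6, 70.9 and 43.2 CPM in MBD2aR181C (log2 fold change 1.75 ± 0.25 (SE), adjusted p = 2.26e-05), and overlaps *Zbtb22* on its own strand. Its relative *Tapbpl* was at 10.2, 8.10 and 12.1 CPM in MBD2a and 1.64, 4.02 and 1.69 CPM in MBD2aR181C (log2 fold change 2.06, adjusted p = 1.43e-05). Both lay above the mutant range in every MBD2a library. *H2-Bl* was at 16.6, 36.1 and 66.2 CPM in MBD2a and 2.91, 15.1 and 8.78 CPM in MBD2aR181C (log2 fold change 2.16 ± 0.65 (SE), adjusted p = 0.0102), and was not called without s15 or s19 (log2 fold changes of 1.57 to 1.76, adjusted p = 0.0515 to 0.0698, edgeR). *H2-T24* rose from 5 reads in MBD2aR181C to 69 in MBD2a. Several class I genes are close copies of each other, so their reads may be split between them.

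Many germline and meiosis genes are held silent by promoter methylation in somatic cells. Of 57 tested, 24 were called higher in MBD2a (42.1%, beside 15.1% of all genes) and 2 lower, while 31 had no call. The median log2 fold change was 1.36. *Sohlh1* was described above, and *Khdc3*, a maternal-effect gene of the oocyte that overlaps *Gm20509* on its own strand, stood at 16.002, 24.1 and 23.2 CPM in MBD2a and 0.722, 4.29 and 1.19 CPM in MBD2aR181C (log2 fold change 3.38 ± 0.47 (SE), adjusted p = 1.86e-05). *Dazl*, an RNA-binding protein of germ cells, was at 16.2, 21.7 and 21.7 CPM in MBD2a and 1.25, 19.8 and 6.19 CPM in MBD2aR181C (log2 fold change 1.14 ± 0.79 (SE), adjusted p = 0.235), and s20 lay within the range of the MBD2a libraries. *Sycp2* of the synaptonemal complex (2.22), the meiotic cohesin subunit *Rec8* (1.83) and the helicase *Ddx4* (1.47) were called higher. The summed level of the 57 genes was 2287, 2542 and 1827 CPM in MBD2a and 239, 1379 and 604 CPM in MBD2aR181C, so the mutant libraries differed more among themselves than the MBD2a libraries did. The genes called higher were 45 without s20 (median 2.39), 7 without s19, 12 without s21 and 15 without s15, and 8 in a fit of only the 2 lines. Without s20 *Dazl* was called (2.47, adjusted p = 0.0269, edgeR). The piRNA pathway genes *Tdrkh*, at 17.6, 14.4 and 9.35 CPM in MBD2a and 48.8, 31.6 and 41.4 CPM in MBD2aR181C (log2 fold change -1.56 ± 0.24 (SE), adjusted p = 4.00e-05), and *Tdrd9* (-1.31) were lower, whereas *Tdrd6* (-1.20) was not called. *Tdrd9* was not called without s14, s15 or s19 (log2 fold changes of -1.22 to -1.14, adjusted p = 0.0719 to 0.101, edgeR), *Gtsf1* (2.97) not without s15 (log2 fold change 1.381, adjusted p = 0.189, edgeR) and *Nobox* (2.46) not without s15, s19 or s21 (log2 fold changes of 1.88 to 2.77, adjusted p = 0.0503 to 0.152, edgeR).

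The promoter of *Dazl*, at chr17:50432925-50433174 (minus strand), is an example with more CpGs, 23 in the 250 bases before the gene start in NCBIM37, shown in capitals.
Dazl: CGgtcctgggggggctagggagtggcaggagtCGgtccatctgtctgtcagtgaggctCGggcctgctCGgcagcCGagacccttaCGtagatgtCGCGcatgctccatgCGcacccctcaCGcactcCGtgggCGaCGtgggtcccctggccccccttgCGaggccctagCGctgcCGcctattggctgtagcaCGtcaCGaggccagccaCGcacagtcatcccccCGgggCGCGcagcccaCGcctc

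Imprinted genes, which are expressed from one parental allele under control of methylated regions, moved both ways. Of 55 tested, 18 were called higher (32.7%, beside 15.1% of all genes) and 11 lower (20%, beside 12.2%). The list had a median log2 fold change of 0.09. *Peg10* stood at 1095, 841 and 3211 CPM in MBD2a and 360.0, 573 and 313 CPM in MBD2aR181C (log2 fold change 2.05 ± 0.39 (SE), adjusted p = 3.47e-04), with s15 about 3 times the other MBD2a libraries, and *H19* (1.72) and *Igf2* (1.86) were called higher. *Cdkn1c*, an inhibitor of the cell cycle, was lower at 149.8, 134 and 48.95 CPM in MBD2a and 1099, 470.4 and 761 CPM in MBD2aR181C (log2 fold change -2.81 ± 0.44 (SE), adjusted p = 5.70e-05), and *Nnat*, a gene of the neural tube, was lower at 97.5, 87.2 and 88.7 CPM in MBD2a and 757, 195 and 328 CPM in MBD2aR181C (log2 fold change -2.23 ± 0.42 (SE), adjusted p = 3.10e-04). *Calcr* (3.25) and *Ins2* (2.86) were called higher and *Asb4* (-2.88) lower, all at levels of at most 5.84 CPM, and *Ins2* was not called without s15 (log2 fold change 1.94, adjusted p = 0.0766, edgeR), nor *Asb4* without s15 (log2 fold change -2.31, adjusted p = 0.0574, edgeR). *Meg3*, a maternally expressed noncoding RNA, was not called (-2.14), with 3.01 CPM in s15 and 0.144 and 0.177 CPM in s13 and s14, and it was called without s15 (log2 fold change -4.97, adjusted p = 0.0386, edgeR). *Grb10* was at 509.9, 305 and 13.99 CPM in MBD2a and 640.4, 414 and 609 CPM in MBD2aR181C and was not called, with s15 far below the rest. Without s15, 8 genes were called higher and 5 lower, without s19 3 and without s14 or s21 7 lower.

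Among the subunits of NuRD and its partners, 4 of 31 tested were called lower (12.9%) and 5 higher (16.1%). These shares lay near the 12.2% and 15.1% of all genes. *Chd4*, the main remodeller, stood at 882, 925 and 681 CPM in MBD2a and 1097, 949 and 867 CPM in MBD2aR181C (log2 fold change -0.23 ± 0.19 (SE), adjusted p = 0.328), and *Hdac1* at a log2 fold change of 0.24, neither called. *Chd5*, the neuronal remodeller, was higher at 24.1, 20.2 and 14.3 CPM in MBD2a and 3.38, 9.34 and 3.84 CPM in MBD2aR181C (log2 fold change 1.83 ± 0.31 (SE), adjusted p = 1.06e-04), and overlaps *Gm13645* on the opposite strand. *Mta3* was at 93.7, 107 and 153 CPM in MBD2a and 37.8, 63.0 and 37.5 CPM in MBD2aR181C (log2 fold change 1.36 ± 0.23 (SE), adjusted p = 1.17e-04). *Sall4*, a partner active in ESCs, was at 228, 241 and 176 CPM in MBD2a and 31.4, 115 and 57.9 CPM in MBD2aR181C (log2 fold change 1.66, adjusted p = 0.00314). All 3 lay above the mutant range in each MBD2a library. *Sall3* was lower at 3.40, 2.59 and 3.01 CPM in MBD2a and 64.7, 25.97 and 35.5 CPM in MBD2aR181C (log2 fold change -3.81 ± 0.50 (SE), adjusted p = 1.11e-05), and *Hdac2* was called lower at -1.28. *Zfp296* (1.69) was not called without s15, s19 or s21 (log2 fold changes of 1.25 to 1.59, adjusted p = 0.0827 to 0.118, edgeR). The genes called higher were 3 without s15, without s19 or without s21.

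Among readers and enzymes of DNA methylation, 3 of 24 were called higher (12.5%, beside 15.1% of all genes) and 2 lower (8.33%, beside 12.2%). *Dnmt3l*, the cofactor of de novo methylation in ESCs and germ cells, stood at 16.9, 30.8 and 83.2 CPM in MBD2a and 1.47, 12.2 and 2.20 CPM in MBD2aR181C (log2 fold change 3.07 ± 0.89 (SE), adjusted p = 0.00789), overlaps *Aire* on the opposite strand and was not called without s15 (log2 fold change 2.20, adjusted p = 0.0587, edgeR). *Dnmt3b* was at 40.3, 45.3 and 64.8 CPM in MBD2a and 15.9, 34.4 and 21.7 CPM in MBD2aR181C (log2 fold change 1.06 ± 0.25 (SE), adjusted p = 0.00194) and was not called without s15, s19 or s21 (log2 fold changes of 0.84 to 1.00, adjusted p = 0.0123 to 0.0154, edgeR), where its fold fell under the threshold. The stress genes of the Gadd45 family moved apart. *Gadd45g* was at 15.5, 19.4 and 11.95 CPM in MBD2a and 108, 60.2 and 98.1 CPM in MBD2aR181C (log2 fold change -2.51 ± 0.23 (SE), adjusted p = 7.03e-07). *Gadd45b* was at 15.7, 30.8 and 28.5 CPM in MBD2a and 4.06, 10.8 and 5.45 CPM in MBD2aR181C (log2 fold change 1.89 ± 0.41 (SE), adjusted p = 9.40e-04). *Tet3*, an oxidase of methylcytosine, was called lower (-1.06). *Dnmt1* (0.13), *Uhrf1* (-0.24), *Mbd1* (0.04), *Mbd4* (0.33) and *Zbtb38* (0.84) were not called, though *Zbtb38* was called without s20 (log2 fold change 1.18, adjusted p = 3.43e-06, edgeR).

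Of 28 p53 targets and inhibitors of the cell cycle, 9 were called higher (32.1%, beside 15.1% of all genes). *Cdkn1c* alone was called lower, and the median log2 fold change of the list was 0.66. *Perp*, a membrane protein induced by p53, stood at 76.4, 79.0 and 109 CPM in MBD2a and 10.7, 22.3 and 17.3 CPM in MBD2aR181C (log2 fold change 2.40 ± 0.27 (SE), adjusted p = 2.55e-06). The neighbouring inhibitors *Cdkn2a* and *Cdkn2b* were also higher. *Cdkn2a* was at 54.7, 24.7 and 43.6 CPM in MBD2a and 4.502, 22.2 and 12.2 CPM in MBD2aR181C (log2 fold change 1.67, adjusted p = 0.0107). *Cdkn2b* was at 10.99, 5.63 and 10.4 CPM in MBD2a and 2.17, 4.21 and 2.43 CPM in MBD2aR181C (log2 fold change 1.63, adjusted p = 0.00369). The inhibitors *Cdkn1b* (-0.81) and *Cdkn2c* (-0.79) and the nucleotide reductase *Rrm2b* (-0.86) were below 0 without a call. Glycolysis and hypoxia genes had 4 of 35 called higher (11.4%) and 2 lower (5.71%), under the shares of all genes. *Mxi1* stood at 29.0, 29.0 and 26.1 CPM in MBD2a and 94.5, 62.6 and 72.0 CPM in MBD2aR181C (log2 fold change -1.45 ± 0.21 (SE), adjusted p = 2.67e-05), and *Ankrd37*, *P4ha2*, *Car9*, *Ndrg1* and *Slc2a3* had log2 fold changes of -1.40, 1.52, 1.49, 1.26 and 1.01. The summed level was 6793, 16087 and 12677 CPM in MBD2a and 14991, 15542 and 14175 CPM in MBD2aR181C, with s13 apart. Without s15 or without s19 none was called higher (edgeR, with *Car9* at 1.17, adjusted p = 0.0692 and 1.22, adjusted p = 0.0544), and 1 was without s21 or in the fit of only the 2 lines. *P4ha2*, *Ndrg1* and *Slc2a3* were not called without s21 (adjusted p = 0.103 to 0.168, edgeR), nor *Ankrd37* without s13 (log2 fold change -0.99, adjusted p = 0.0236, edgeR).

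The differences between MBD2a and its mutant were set beside those between *Mbd3* KO and WT, which come from 6 other libraries of the same fit. Across 16582 genes, Spearman's rho between the log2 fold changes was 0.874, the slope of the first on the second 0.72, and 86.2% of the genes had the same sign. Genes are not independent replicates, so these values are a description. In *Mbd3* KO minus WT 5609 genes were called (33.8%). Of the 2509 genes called higher in MBD2a, 2123 (84.6%) were among the 3248 called higher in *Mbd3* KO (19.6% of tested genes), and these were 65.4% of the latter. Of the 2016 called lower, 1684 (83.5%) were among the 2361 called lower in *Mbd3* KO (14.2%), or 71.3% of these. Opposite calls were made for 2 and 10 genes. Single MBD2a libraries set against the mutant mean gave slopes of 0.578 for s13, 0.580 for s14 and 0.823 for s15. The MBD2a mean set against single mutant libraries gave 0.817 for s19, 0.474 for s20 and 0.689 for s21, so s20 gave the lowest slope and s15 and s19 the highest.

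The difference between the 2 comparisons was tested as a contrast of its own, and 123 genes (0.742%) were called, 28 higher (0.169%) and 95 lower (0.573%). Beside *Mbd2*, the genes described are the 5 largest in each direction among those that averaged 1 or more on the log2 CPM scale over the 12 libraries and did not overlap within either comparison, and genes outside these limits, such as *Oprk1* and several placental prolactins, had called differences larger than several of these. *Sp8*, a factor of the forebrain and limb ridge, had log2 fold changes of -2.78 in MBD2a minus MBD2aR181C and -6.94 in *Mbd3* KO minus WT (difference 4.15 ± 0.62 (SE), adjusted p = 0.00223). Its level was 3.40, 6.01 and 1.10 CPM in MBD2a and 30.7, 19.5 and 21.2 CPM in MBD2aR181C, against 0.200, 0.398 and 0.529 CPM in *Mbd3* KO. *Vit* (-3.46 against -6.19) and *Pax6* (-1.39 against -4.08) fell in both but less between MBD2a and its mutant. *Aldh1a7* (2.08 against -1.06) and *Slc25a21* (1.28 against -1.61), which overlaps *Pax9* on the opposite strand, were called higher in MBD2a and lay below 0 in *Mbd3* KO. *Slc25a21* was not called higher without s13 or s19 (log2 fold changes of 0.86 to 1.08, adjusted p = 0.0609 to 0.0967, edgeR).

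In the other direction, the germline genes *Sohlh1* and *Khdc3* rose in both comparisons but less in MBD2a. *Sohlh1* had log2 fold changes of 4.25 and 8.12 (difference -3.88 ± 0.63 (SE), adjusted p = 0.00509), with 8.40, 9.63 and 15.6 CPM in MBD2a against 144, 144 and 125 CPM in *Mbd3* KO. *Khdc3* had 3.38 and 6.97 (difference -3.59 ± 0.70 (SE), adjusted p = 0.0175). Of the 20 tested genes of endothelium and blood, 3 had a difference called lower and none had one called higher. The endothelial genes among those described here split by direction. *Cdh5*, the adhesion protein of endothelial junctions, was at 8.12, 2.68 and 13.2 CPM in MBD2a and 18.6, 28.8 and 20.003 CPM in MBD2aR181C and at 85.2, 146 and 174 CPM in *Mbd3* KO and 23.7, 36.1 and 23.3 CPM in WT (difference -3.77 ± 0.59 (SE), adjusted p = 0.00322). *Esam* (-1.39 against 1.93) and *Entpd1* (-1.51 against 2.27) showed the same split. *Mbd2* itself (-1.79 against 0.57) was among the 95. The number of genes called depended strongly on the libraries in the fit, and a fit of only the 12 libraries of these 4 lines called 9, all of them among the 123.

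**Figure D5:**
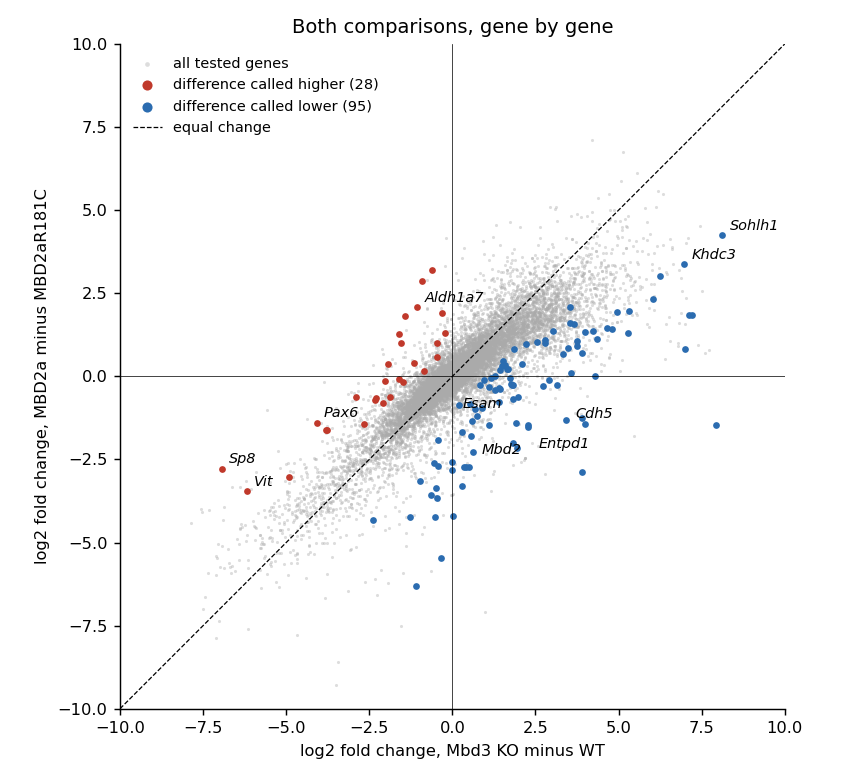
Log2 fold change of MBD2a minus MBD2aR181C against that of Mbd3 KO minus WT for all tested genes, with the 28 genes whose difference was called higher in red, the 95 called lower in blue and equal change as a dashed line. Most genes lie near a line of slope 0.72, Sohlh1 and Khdc3 lie below it on the right, and Cdh5, Esam and Entpd1 lie below 0 while above 0 in Mbd3 KO.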

How the data were processed

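Poly(A) RNA of 24 libraries, 3 from each of 8 lines, was measured by RNA-seq. Per the labels and methods of the study, the authors used Trim Galore on single-end reads, STAR for alignment on mm9 (NCBIM37) and deposited raw counts per GENCODE gene, made with qCount of QuasR. Whether strand was used in the counting is not given in the sources used here. Authors' fold changes were not used.

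From the deposited counts, genes were filtered by filterByExpr (16582 of 25400 kept), scaled by TMM and fitted with the quasi-likelihood test of edgeR (version 4.0.16) over all 24 libraries with line as the only factor. Genes were called at a Benjamini-Hochberg adjusted p under 0.05 and an absolute log2 fold change over 1, and every adjusted p comes from this model over all tested genes unless another tool is named. The script was tested on simulated data. P-values measure the spread between clones, except that the 3 MBD2t libraries, which share in the estimate of spread, came from 1 clone. Total counts were 31875299 to 49392806 per library of the pair.

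Genes named were the 10 largest called changes in each direction among genes without overlap between the lines whose log2 CPM averaged 1 or more, the 4 members of each list with the largest absolute log2 fold change and up to 4 against the list median, the 5 largest called differences between the comparisons in each direction under the same limits over 12 libraries, and *Mbd2*, *Mbd3*, *Cd24a*, *Ncam1* and genes the study names. Other members, chosen after their values were seen, are named to account for a list. The lines, the 21 gene lists and this rule were chosen with earlier results of these data known. Of 679 list genes, 632 were tested. Promoter windows were read from NCBIM37 at GENCODE gene starts, a choice made after RefSeq windows were seen to cover too few of the tested genes. Alternatives were DESeq2 (version 1.42.0), glmTreat, other scalings and filters, fewer lines and leaving out each library. A few list members and promoter sequences are not reported here.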

Additional observations from a re-analysis of the deposited data

Results flagged for a closer look

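The change between MBD2a and MBD2aR181C was tested against that between *Mbd3* KO and WT by a contrast in the fit over all libraries, and 123 genes differed (edgeR, adjusted p under 0.05 and an absolute log2 difference over 1). *Sp8* differed by 4.15, *Aldh1a7* by 3.14, *Slc25a21* by 2.88, *Vit* by 2.73 and *Pax6* by 2.69 on the log2 scale, all less negative or more positive between MBD2a and its mutant. *Sohlh1* differed by -3.88, *Entpd1* by -3.78, *Cdh5* by -3.77, *Khdc3* by -3.59 and *Esam* by -3.32. Leaving out each of the 12 libraries in turn ended the call of *Pax6* in 11 fits, of *Aldh1a7* in 10, of *Slc25a21* in 6, of *Vit* in 4 and of *Khdc3* in 2, whereas *Sp8*, *Sohlh1*, *Entpd1*, *Cdh5* and *Esam* were called in all 12. In a fit of only the 12 libraries of these 4 lines, *Sohlh1* and *Esam* were called and the other 8 genes were not. The cause of these differences was not tested.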

How the results depend on the processing

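No paired analysis was possible because the columns of the count table carry no replicate number. Calls between MBD2a and its mutant numbered 3732 to 4658 under other scalings, filters, sets of lines and DESeq2, against 4525. Scaling by library size alone moved the median log2 fold change of all genes from -0.025 to 0.126. With the fold threshold inside the test (glmTreat), 2043 genes were called, 930 higher and 1113 lower, and 197 list members instead of 360. The loss was uneven among the lists. Called higher were then 1 gene of the p53 list, 1 of parietal endoderm and 5 of primitive and visceral endoderm. The retinoic acid pathway kept 1 higher and 1 lower. By contrast, 29 interferon genes stayed called higher and 32 genes of postmitotic neurons lower. Leaving out each library gave 3530 to 5257 calls, 1870 to 3046 higher and 1607 to 2211 lower. The difference from *Mbd3* KO minus WT was the least stable result: DESeq2 called 321 genes (81 higher, 240 lower), the 12 libraries alone 9 (1 higher, 8 lower), leaving out s04 and s15 together, chosen after seeing the data, 414 (59 higher, 355 lower), and leaving out 1 library 37 to 433 (11 to 91 higher, 25 to 342 lower), with the fewest without s14 and the most without s15. The cause was not tested. Spearman's rho to *Mbd3* KO minus WT was 0.824 to 0.875, its slope 0.620 to 0.848 and the same sign 83.5% to 86.3% when 1 library was left out, and 97.9% of the called genes had the same sign. Over 149 named genes, 2210 of 2366 values under an alternative kept the call or its absence, 141 lost the call and 15 gained it. No value that was called in the main fit or the alternative changed direction. Changes of sign in genes called in neither fit were not counted, such as *Dppa3*, whose log2 fold change ran from -1.03 to 0.40 when 1 library was left out. A level of 3 counts, 0.0607 to 0.0941 CPM before scaling, is the floor that depth sets.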
